A study of Neurospora crassa with 24 samples.

Results

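The OS-2 pathway of *Neurospora crassa*, a filamentous fungus used as a clock model, is represented in these data by 7 genes of the 9730 in the count files. They were taken by gene identifier. They are *os-1* (NCU02815), *hpt-1* (NCU01489), *rrg-1* (NCU01895), *rrg-2* (NCU02413), *os-4* (NCU03071), *os-5* (NCU00587) and *os-2* (NCU07024). All 7 were detected in each of the 24 libraries, and all 7 passed the filter on low values (a mean of at least 2 CPM, the count scaled to the library total).

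The strains were ΔMSN1 (FGSC #11345), which carries a knockout of *msn-1* (NCU02671), the gene of a zinc finger factor named after a yeast stress regulator, and the wild type, WT (FGSC #2489). Both strains grew as liquid cultures in Vogel's medium with glucose, arginine and biotin, saw 2 days of 11 h light and 11 h dark, and were then kept dark. RNA was taken from 1 culture per strain every 2 h, at 12 times between 0 and 22 h after lights off, which gave 12 ΔMSN1 and 12 WT libraries. The 0 h cultures were taken at lights off, so the first step of each course goes from light to dark. Because transfers were staggered, harvest fell within 10 h. No knockout of a pathway gene and no osmotic stress was part of the comparison, and only RNA was measured, not the phosphorylation of the proteins.

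In fungi the pathway passes phosphate through a relay before it reaches a MAP kinase cascade. OS-1 is a hybrid histidine kinase, HPT-1 carries the phosphate from it, and the response regulators RRG-1 and RRG-2 receive it. RRG-1 acts on the MAP kinase kinase kinase OS-4, which acts on the MAP kinase kinase OS-5, which acts on the MAP kinase OS-2, the counterpart of yeast Hog1. The pathway serves growth under high osmolarity and the action of phenylpyrrole fungicides, and in *N. crassa* it is also known as an output path of the clock, since the phosphorylation of OS-2 cycles in constant darkness.

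Estimated counts summed to between 2415479 and 9829687 per library in ΔMSN1 and between 2732470 and 8094126 in WT. The deleted gene *msn-1* was listed at 0 in 11 of 12 ΔMSN1 libraries and at 0.0396 CPM in the other, against 27.6 to 50.6 CPM in WT libraries. The labels name a sequencing lane only for ΔMSN1, so strain and lane cannot be told apart. In ΔMSN1 the libraries of 2 h and 16 h stood apart from the other libraries. There the level of long genes, relative to the mean of each gene over all libraries, was low: the slope was −0.249 at 2 h and −0.289 at 16 h, in log2 units per doubling of gene length. The remaining ΔMSN1 libraries had slopes of −0.131 to 0.181, and WT libraries had slopes of −0.077 to 0.110. Conidiation genes, as markers of spore-forming cells, summed to a median of 2052 CPM (681.5 to 4990) in ΔMSN1 and 3765 CPM (912.0 to 6603) in WT. None of these 5 markers was at 0 in any library, and 1 of them, *eas*, the hydrophobin of the spore coat, fell in ΔMSN1 (log2 fold change −0.88 ± 0.25 SE, edgeR adjusted p = 0.0187), a call lost without 2 h and 16 h (−0.73, edgeR adjusted p = 0.0558) and without the time factor (−0.84, edgeR adjusted p = 0.151). *eas* had a mean of 1446 CPM in ΔMSN1 and 2581 CPM in WT and weighs heavily in the sum. The other markers were not called and differed in sign, with log2 fold changes of −0.71 for *con-6*, −0.42 for *con-10*, 0.03 for *con-8* and 0.19 for *fl*, the last of them higher in ΔMSN1 at 10 of 12 times. In such bulk cultures fewer cells of a type and less RNA per cell cannot be told apart, and the part of spore-forming cells in the results was not tested.

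Transcript levels differed widely between the members, and their order was nearly the same in each strain. The phosphotransfer gene *hpt-1* was the most abundant, at 229.2 ± 47.2 CPM in ΔMSN1 and 219.4 ± 42.5 CPM in WT (SD, n = 12 each). The sensor kinase gene *os-1*, upstream of it, stood at 30.4 ± 7.33 CPM in ΔMSN1 and 28.4 ± 3.30 CPM in WT. Both response regulator genes were lower. *rrg-2*, whose product resembles the yeast regulator Skn7, averaged 15.9 ± 2.24 CPM in ΔMSN1 and 15.5 ± 1.62 CPM in WT. *rrg-1*, whose product resembles yeast Ssk1 and feeds the MAP kinase cascade, averaged 8.80 ± 2.11 CPM in ΔMSN1 and 8.66 ± 1.04 CPM in WT. Thus the phosphotransfer step was the best expressed, and the regulator that hands the signal to the kinases was among the lowest.

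Within the MAP kinase cascade the level climbed from tier to tier. *os-4* averaged 6.28 ± 1.82 CPM in ΔMSN1 and 6.68 ± 2.14 CPM in WT, the lowest of the 7 genes. *os-5* averaged 28.6 ± 4.74 CPM in ΔMSN1 and 26.1 ± 1.98 CPM in WT. *os-2* averaged 98.5 ± 20.7 CPM in ΔMSN1 and 95.5 ± 8.01 CPM in WT. In each of the 12 ΔMSN1 and the 12 WT libraries *os-5* was above *os-4* and *os-2* was above *os-5*. The ratio of *os-5* to *os-4* was 4.83 ± 1.24 in ΔMSN1 and 4.24 ± 1.24 in WT, and that of *os-2* to *os-5* was 3.43 ± 0.35 in ΔMSN1 and 3.69 ± 0.45 in WT.

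The order *hpt-1*, *os-2*, *os-1*, *rrg-2*, *rrg-1* held in 12 of 12 libraries of ΔMSN1 and 12 of 12 of WT. Neighbours that did not separate were *os-1* and *os-5*, with *os-1* the higher in 7 of 12 ΔMSN1 libraries and 10 of 12 WT libraries. At the low end *rrg-1* was above *os-4* in 12 of 12 ΔMSN1 libraries and 10 of 12 WT libraries. Among all 9730 genes ranked by mean level, *hpt-1* took place 538 in ΔMSN1 and 581 in WT, and *os-4* took place 5951 in ΔMSN1 and 5785 in WT. Small deposited values were lower in longer genes, as if length had already been divided out, so the CPM were compared between genes as they stand. Divided by gene length once more, the members ran from 115.2 (*hpt-1*) to 1.07 CPM per kb (*os-4*) in ΔMSN1 and from 110.3 to 1.13 CPM per kb in WT, and the order of the means changed only in that *os-5* (8.44 in ΔMSN1, 7.69 in WT) passed *os-1* (4.62 in ΔMSN1, 4.32 in WT). One limit touches *hpt-1*: in the NC12 annotation it overlaps its neighbour NCU01488 by 323 bases. Where strand is not used, reads of the overlap cannot be told apart between these genes, so the estimate for *hpt-1* may be too high or too low. No other member overlaps the gene next to it.

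**Figure D1:**
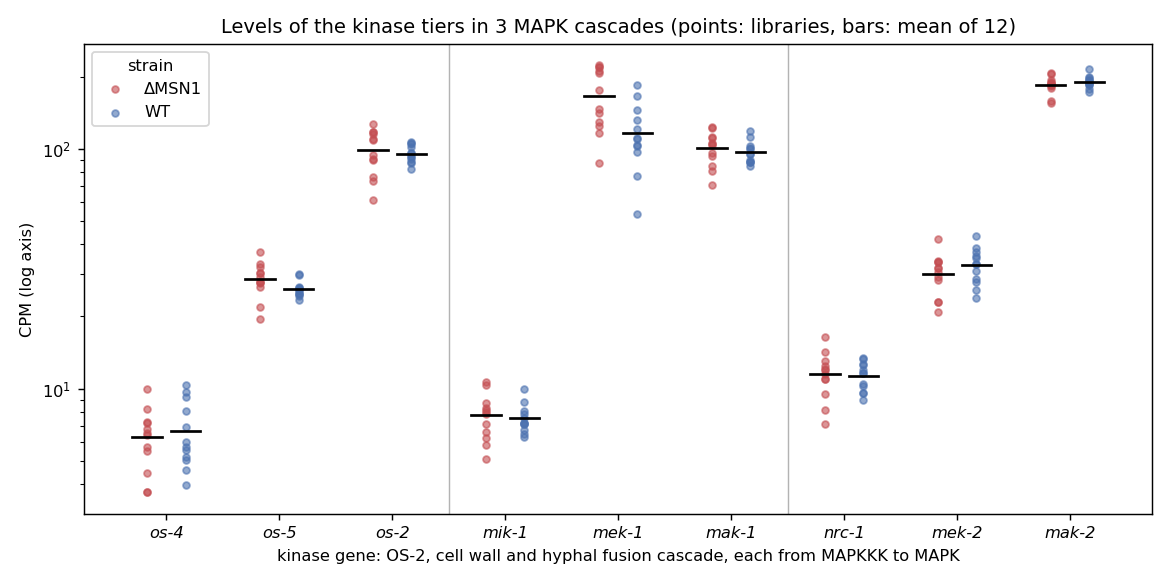
Levels in CPM (log axis) of the MAP kinase kinase kinase, MAP kinase kinase and MAP kinase genes of the OS-2, cell wall and hyphal fusion cascades, with ΔMSN1 left of WT, 1 point per library and a bar at the mean of 12. The OS-2 cascade climbs from 6.28 CPM (*os-4*) through 28.6 CPM (*os-5*) to 98.5 CPM (*os-2*) in ΔMSN1, and from 6.68 through 26.1 to 95.5 CPM in WT.

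The other MAP kinase cascades of the fungus were set beside it. In the hyphal fusion cascade the level climbed in the same way, from *nrc-1* through *mek-2* to *mak-2*, with *mek-2* over *nrc-1* at 2.66 ± 0.37 in ΔMSN1 and 2.90 ± 0.33 in WT, and *mak-2* over *mek-2* at 6.32 ± 1.28 in ΔMSN1 and 5.97 ± 1.08 in WT. The cell wall integrity cascade had a different shape. Its MAP kinase kinase gene *mek-1* was 21.6 ± 4.35 times as high as *mik-1* in ΔMSN1 and 15.8 ± 5.41 times in WT, and its MAP kinase gene *mak-1* was below *mek-1* in 12 of 12 ΔMSN1 libraries and 8 of 12 WT libraries. *os-2* lay close to *mak-1*, at a ratio of 0.974 ± 0.098 in ΔMSN1 and 0.996 ± 0.132 in WT, and below *mak-2* in every library of both strains.

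Averaged over the 12 times, the mean RNA levels of the OS-2 pathway were close between the strains, and no member was called. Over all tested genes the strain effect was called in 1595 of 7310, which is 21.8%, and in 0 of the 7 members (edgeR quasi-likelihood test with time as a factor, adjusted p under 0.05). At an unadjusted p under 0.05 the counts were 0 of 7 members and 2585 of 7310 genes (35.4%). DESeq2 and limma-voom also called 0 of the 7. The median size of the log2 fold change was 0.06 for the members and 0.16 for all tested genes.

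For the relay genes the intervals were narrow. *os-1* ranged from 18.6 to 39.95 CPM (median 32.4) in ΔMSN1 and from 23.7 to 35.4 CPM (median 27.8) in WT, with a log2 fold change of 0.10 (95% interval −0.12 to 0.31). *hpt-1* ranged from 191.5 to 321.6 CPM (median 208.8) in ΔMSN1 and from 153.5 to 290.6 CPM (median 207.5) in WT, with a log2 fold change of 0.06 (−0.15 to 0.26). The strains overlapped for each of them, and neither gene was higher in one strain at all times. *rrg-1* ranged from 5.16 to 11.5 CPM (median 9.33) in ΔMSN1 and from 7.27 to 10.6 CPM (median 8.73) in WT, with a log2 fold change of 0.06 (−0.18 to 0.30). *rrg-2* ranged from 10.8 to 18.4 CPM (median 15.5) in ΔMSN1 and from 12.0 to 18.0 CPM (median 16.1) in WT, with a log2 fold change of 0.04 (−0.12 to 0.19). Adjusted p-values of these relay genes ran between 0.544 and 0.779.

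The kinase genes gave the same picture. *os-4* ranged from 3.69 to 9.92 CPM (median 6.48) in ΔMSN1 and from 3.96 to 10.3 CPM (median 5.83) in WT, with a log2 fold change of −0.02 (−0.29 to 0.25, adjusted p = 0.939 by edgeR). *os-2* ranged from 61.3 to 126.7 CPM (median 101.8) in ΔMSN1 and from 82.0 to 106.9 CPM (median 94.6) in WT, with a log2 fold change of 0.02 (−0.16 to 0.21, adjusted p = 0.876 by edgeR). The *os-2* range of WT lies inside that of ΔMSN1. *os-5* ranged from 19.4 to 37.3 CPM (median 28.5) in ΔMSN1 and from 23.5 to 30.0 CPM (median 25.8) in WT. Its log2 fold change of 0.13 (−0.06 to 0.33, adjusted p = 0.325 by edgeR) was the largest of the 7, and it was higher in ΔMSN1 at 9 of 12 times.

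Over the 7 members the 95% intervals of the fold reached no lower than 0.817 (*os-4*) and no higher than 1.26 (*os-5*). The *os-5* result turned on the libraries that stood apart. With 2 h and 16 h left out of both strains, a choice made after the data were seen, *os-5* was called (log2 fold change 0.23, adjusted p = 0.0414 by edgeR), the only one of the 7, while 1970 of 7316 genes were called.

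**Figure D2:**
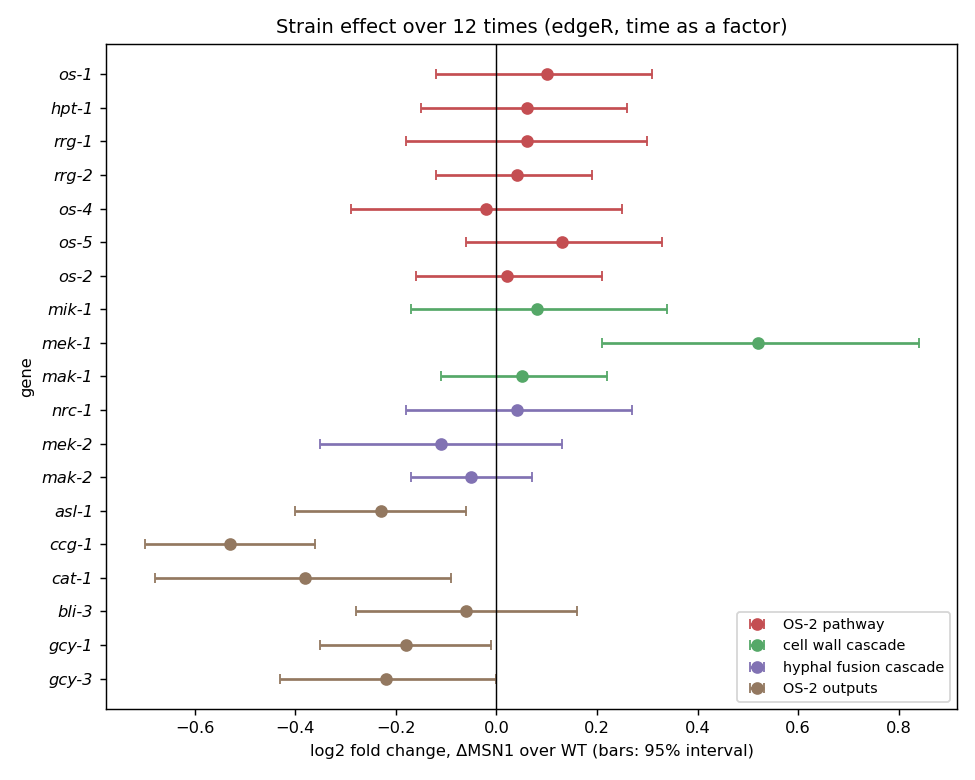
Log2 fold change of ΔMSN1 over WT with its 95% interval (edgeR, 12 libraries per strain, time as a factor) for the 7 OS-2 pathway genes, 6 kinase genes of the other cascades and 6 reported output genes of OS-2. The intervals of all 7 pathway genes hold 0, whereas *mek-1* lies at 0.52 and *ccg-1* at −0.53.

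Kinase genes of the other cascades and reported outputs of the pathway were read in the same fit. In each of these lists 1 of 6 genes was called, beside 21.8% of all tested genes. Of the 6 kinase genes of the other cascades, *mek-1*, the MAP kinase kinase of the cell wall cascade, rose in ΔMSN1, to 166.6 ± 48.0 CPM, against 116.8 ± 36.4 CPM in WT (log2 fold change 0.52 ± 0.15 SE, adjusted p = 0.0194 by edgeR, higher at 9 of 12 times). The other 5 were not called. Of 6 genes that have been reported as outputs of OS-2, 1 fell and 0 rose. It was *ccg-1*, a clock-controlled gene and among the most abundant RNAs of the fungus, which was lower in ΔMSN1 at 12 of 12 times. It measured 11966 to 44000 CPM in ΔMSN1 and 19055 to 56387 CPM in WT (log2 fold change −0.53 ± 0.08 SE, adjusted p = 2.73e-04 by edgeR), a call lost without the time factor (−0.51, adjusted p = 0.114 by edgeR). The values of the remaining output genes were −0.23 for *asl-1*, a bZIP factor of the ATF type (adjusted p = 0.0516 by edgeR), −0.38 for the catalase gene *cat-1* (0.0573), −0.18 and −0.22 for the glycerol dehydrogenase genes *gcy-1* (0.114) and *gcy-3* (0.134), and −0.06 for *bli-3* (0.72), all as log2 fold changes. The median over the 6 output genes was −0.22, beside 0.01 over all tested genes. Among 4 further phosphorelay genes, the histidine kinase genes *nik-2* and *dcc-1* were tested and not called, and the phytochrome genes *phy-1* and *phy-2* were below the filter.

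The members were next followed over the 22 h. Among them *os-4* swung the most in each strain by its fitted 22 h component. In ΔMSN1 it read 3.69, 3.72, 5.52 and 5.70 CPM at 0, 2, 4 and 6 h, 8.21, 9.92, 6.78 and 7.25 CPM at 8, 10, 12 and 14 h, and 4.45, 6.43, 6.53 and 7.16 CPM at 16, 18, 20 and 22 h. In WT it read 5.21, 3.96, 5.03 and 6.90 CPM at the first 4 times, 5.53, 8.10, 9.69 and 10.3 CPM at the next 4, and 9.22, 5.70, 4.56 and 5.97 CPM at the last 4. The ΔMSN1 maximum came at 10 h, and the high values of WT sat between 10 and 16 h. At 12, 14 and 16 h, with 1 library per strain and time, the ΔMSN1 values were below those of WT.

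*hpt-1*, in the relay upstream, had 268.8 CPM at 0 h, 317.7 CPM at 2 h and 321.6 CPM at 16 h in ΔMSN1, and lay between 191.5 and 222.4 CPM at each of the other 9 times. In WT it read 290.6, 280.7, 258.4 and 252.8 CPM at 0, 2, 4 and 6 h, 222.9, 193.4, 182.9 and 184.2 CPM at 8, 10, 12 and 14 h, and 153.5, 203.4, 211.6 and 198.6 CPM at 16, 18, 20 and 22 h. That is a decline over 16 h of darkness and a partial return in WT, opposite to *os-4*. Both high ΔMSN1 values after 0 h belong to the libraries with the steep length slopes. At the same times *os-1*, *rrg-1*, *rrg-2*, *os-5* and *os-2* had their 2 lowest ΔMSN1 values, for instance 73.4 and 61.3 CPM for *os-2*, whose other ΔMSN1 values lay between 76.4 and 126.7 CPM. *hpt-1* has a short gene (1990 bases), whereas the other members span 3390 to 6575 bases.

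**Figure D3:**
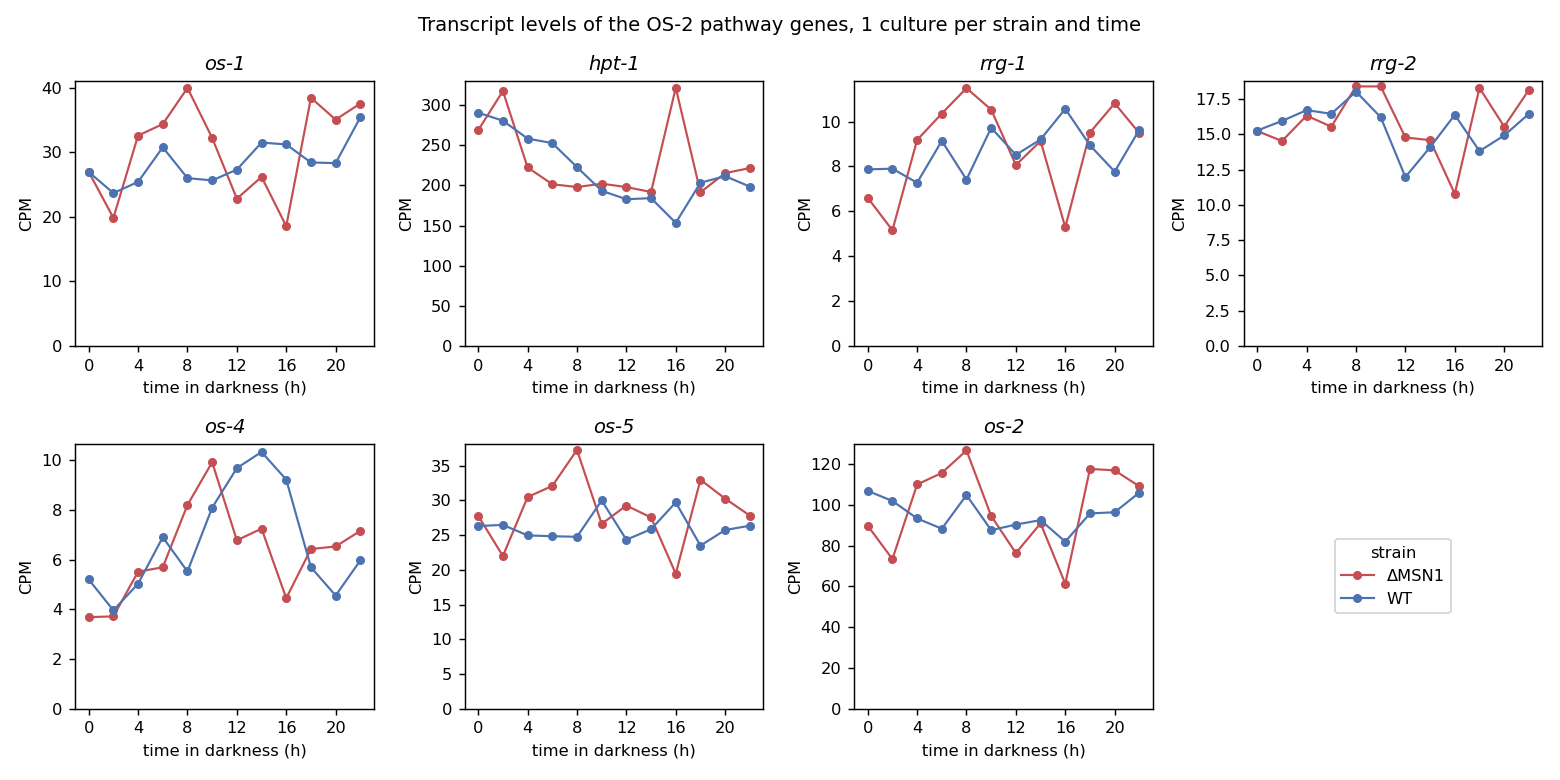
CPM of the 7 genes against hours in darkness, 1 library per strain and time, ΔMSN1 in red and WT in blue, with each axis starting at 0. *os-4* tops out at 9.92 CPM at 10 h in ΔMSN1 and 10.3 CPM at 14 h in WT, and 5 genes have their lowest ΔMSN1 values at 2 h and 16 h, where *hpt-1* reaches 317.7 and 321.6 CPM.

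Rhythms were tested with cosine and sine terms of 22, 11 and 7.33 h together, within each strain, at a false discovery rate of 0.1. No member was called in ΔMSN1, where 3 of 7321 genes (0.041%) were, or in WT, where 23 of 7239 genes (0.318%) were. DESeq2 and limma-voom called no member in either strain. At an unadjusted p under 0.05 the test of all periods together took 0 of the 7 in ΔMSN1 and 1 of the 7, *os-4*, in WT, beside 8.07% of all genes in ΔMSN1 and 12.7% in WT. The clock gene *frq*, planned as the check of the clock, was not called either. Its fitted 22 h swing was 2.78-fold in ΔMSN1 (all periods, adjusted p = 0.646 by edgeR) and 4.26-fold in WT (adjusted p = 0.329 by edgeR). Since so few genes were called in all, and *frq* was missed, the absence of member calls does not show that the members are flat.

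The 22 h component, the circadian one, was largest in *os-4* in each strain. Its fitted swing between trough and peak was 1.67-fold in ΔMSN1, with a peak at 11.2 h (unadjusted p = 0.0442 by edgeR), and 2.11-fold in WT, with a peak at 12.7 h (unadjusted p = 9.17e-04 by edgeR). With all periods together the adjusted p was 0.652 in ΔMSN1 and 0.255 in WT by edgeR, so neither passed. *hpt-1* had a 22 h swing of 1.24-fold in ΔMSN1, with a peak at 21.2 h (unadjusted p = 0.309 by edgeR), and of 1.56-fold in WT, next to that of *os-4* in size, with a peak at 3.30 h (unadjusted p = 0.0113 by edgeR). In WT the fitted peaks of *hpt-1* and *os-4* thus lay on opposite sides of the cycle. The 5 remaining members had 22 h swings of 1.14 to 1.28-fold in ΔMSN1 and 1.06 to 1.21-fold in WT, near the median of all genes, 1.22-fold in each strain.

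Counted at an unadjusted p under 0.05, the 22 h component took 1 of 7 members in ΔMSN1, beside 8.05% of all genes, and 2 of 7 in WT, beside 14.4%. The reported OS-2 output *ccg-1* was called for rhythm in WT (adjusted p = 0.0834 by edgeR), with a 22 h swing of 2.89-fold peaking at 13.7 h in ΔMSN1 and 2.91-fold peaking at 13.4 h in WT. It was the 1 called of the 6 output genes. The WT call was lost in 9 of the 12 fits that left out 1 time each (edgeR adjusted p = 0.0353 to 0.259 over the 12). It was also lost without 2 h and 16 h (adjusted p = 0.443 by edgeR) and with limma-voom (adjusted p = 0.124), and it held with DESeq2 (adjusted p = 6.27e-16). In ΔMSN1 *ccg-1* was not called by edgeR within the strain (adjusted p = 0.408). There it was called by DESeq2 (adjusted p = 9.18e-05) and in one edgeR fit of both strains (adjusted p = 0.0901).

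**Figure D4:**
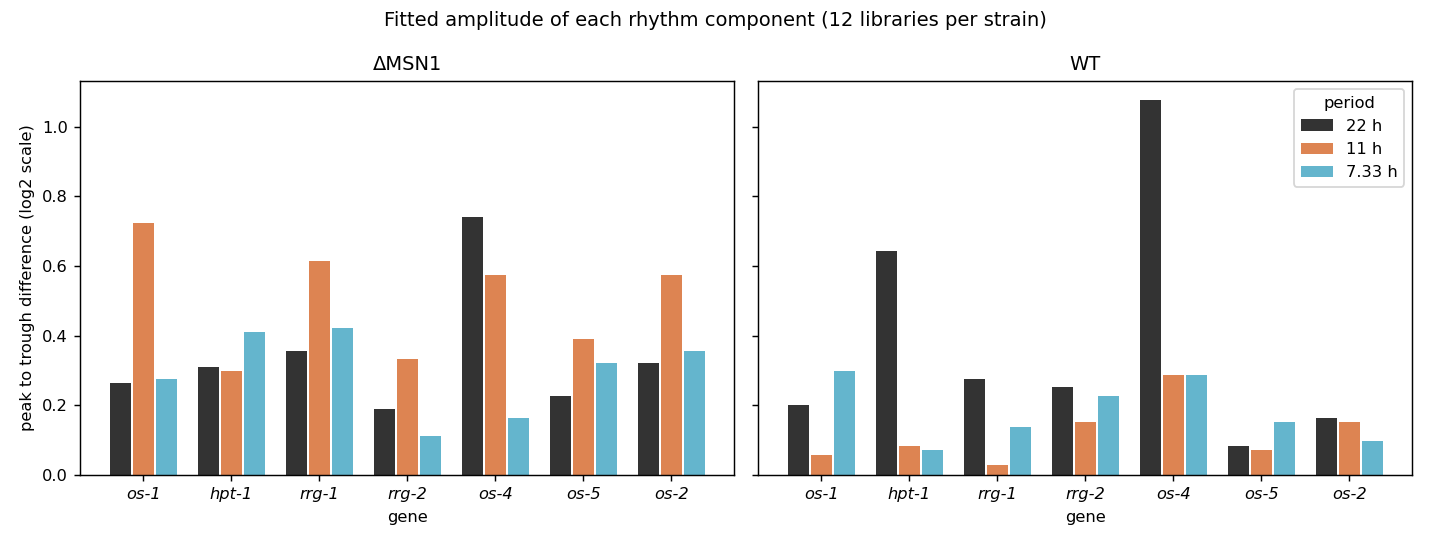
Fitted difference between peak and trough (log2 scale) of the 22, 11 and 7.33 h components for each gene, ΔMSN1 on the left and WT on the right, 12 libraries per strain. In ΔMSN1 the 11 h bar is the tallest of the 3 in 5 genes, and in WT the 22 h bars of *os-4* (2.11-fold) and *hpt-1* (1.56-fold) stand out.

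The 11 h component differed in size between the strains by description. Its median fold over the members was 1.49 in ΔMSN1 and 1.06 in WT, beside 1.29 and 1.18 over all genes of those strains. *os-1* had the largest, 1.65-fold in ΔMSN1 with peaks at 8.12 h and 11 h later (unadjusted p = 0.0327 by edgeR), and 1.04-fold in WT. *rrg-1* followed with 1.53-fold in ΔMSN1 (unadjusted p = 0.0544 by edgeR) and 1.02-fold in WT, and *os-2* with 1.49-fold in ΔMSN1 (unadjusted p = 0.0577 by edgeR) and 1.11-fold in WT. All members but *hpt-1* shared the phase in ΔMSN1, with 11 h peaks between 7.92 and 9.17 h. Counted at an unadjusted p under 0.05, the 11 h component took 1 of 7 members in ΔMSN1, beside 11.4% of all genes, and 0 of 7 in WT, beside 6.84%. The kinase genes of the other cascades had 11 h folds in ΔMSN1 of 1.04 (*mak-2*) to 1.80 (*mek-1*). Their 11 h peaks lay between 7.83 h (*mek-2*) and 8.77 h (*mik-1*), apart from that of *mak-2* at 5.8 h. The shared phase was thus not particular to the OS-2 pathway.

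The 11 h folds were fitted again under the settings added for the libraries that stood apart. With the length trend removed from each library, the *os-1* fold in ΔMSN1 was 1.18 (unadjusted p = 0.263 by edgeR), and those of the other members lay between 1.12 and 1.27. With 2 h and 16 h left out, the *os-1* fold was 1.405 (unadjusted p = 0.129 by edgeR). The 22 h swing of *os-4* was less affected by the length trend: after that correction it was 1.60-fold in ΔMSN1 (unadjusted p = 0.00897 by edgeR) and 2.05-fold in WT (unadjusted p = 2.51e-04 by edgeR), and it stayed uncalled with all periods together (adjusted p = 0.61 in ΔMSN1 and 0.169 in WT). With 2 h and 16 h left out, the *os-4* swing was 1.55-fold in ΔMSN1 (unadjusted p = 0.16 by edgeR) and 1.91-fold in WT (unadjusted p = 0.0105 by edgeR), and that of *hpt-1* in WT was 1.41-fold (unadjusted p = 0.182 by edgeR). For the 7.33 h component the counts were 0 of 7 members in ΔMSN1 (3.13% of all genes) and 0 of 7 in WT (9.13%).

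Whether the time course itself differed between the strains was tested with strain by rhythm terms over all 24 libraries. No member was called, and 1 of 7310 genes (0.0137%) was. Unadjusted p-values of the members ran from 0.205 (*hpt-1*) to 0.709 (*rrg-2*), so 0 of 7 were under 0.05, beside 4.35% of all genes. For *os-4* the p was 0.253 (adjusted p = 0.918 by edgeR). Accordingly the smaller 22 h swing of *os-4* in ΔMSN1, and the larger 11 h swings there, were not shown to differ from WT. The interaction test had little power on simulated data, so the absence of calls does not show that the courses are the same.

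The members varied among the 12 times to different degrees. In ΔMSN1 the SDs of log2(CPM + 1) of *os-5* and *os-2* were 0.2427 and 0.3216, at percentiles 41.0 and 68.1 of the 7310 tested genes. In WT these genes were among the steadiest, with SDs of 0.1025 and 0.1202, at percentiles 2.56 and 5.88. The hyphal fusion gene *mak-2* was steadier still in WT, with an SD of 0.0815 at percentile 0.479. *os-4* had an SD of 0.3712 at percentile 78.9 in ΔMSN1 and of 0.392 at percentile 87.2 in WT. Set against WT, the SD in ΔMSN1 was 2.68 times as large for *os-2*, 2.37 times for *os-5*, 2.29 times for *os-1*, 2.25 times for *rrg-1* and 1.38 times for *rrg-2*. It was 0.976 times for *hpt-1* and 0.947 times for *os-4*. The median of this ratio over all genes was 1.17, and 66.5% of genes had the larger SD in ΔMSN1. Kinase genes of the other cascades also had the larger SD in ΔMSN1, apart from *mek-1* (0.4436 in ΔMSN1, 0.4781 in WT). For instance, *mik-1* had 0.2803 in ΔMSN1 and 0.1655 in WT, and *nrc-1* had 0.3043 in ΔMSN1 and 0.1815 in WT. A larger spread in ΔMSN1 was thus not particular to the OS-2 pathway. No test was run on these ratios. Part of them rests on the 2 h and 16 h libraries. Without those times in either strain, the ratios were 2.13 for *os-2*, 1.74 for *os-1*, 1.56 for *os-5*, 1.49 for *rrg-1*, 0.911 for *os-4*, 0.821 for *rrg-2* and 0.652 for *hpt-1*, beside a median of 1.06 over all genes. The SD of *os-5* was then 0.1433 in ΔMSN1 (percentile 12.0) and 0.0919 in WT (percentile 1.75), and that of *os-2* was 0.2276 in ΔMSN1 (percentile 47.05) and 0.1067 in WT (percentile 3.65).

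In ΔMSN1 the members other than *hpt-1* had a positive Pearson correlation with each other in 15 of 15 pairs and a median r of 0.82. In WT 8 of 15 of these pairs were positive, with a median r of 0.05. The same count was not made over all genes or over the other cascades, so it is not shown to be particular to the pathway. The correlations are over 12 libraries per strain that share time, depth and library make-up, so they are a description of these libraries. Their permutation p-values ignore the order of the libraries in time and can be too small. Without 2 h and 16 h, 15 of 15 pairs were positive in ΔMSN1, with r from 0.05 to 0.94 and a median of 0.55, and 8 of 15 in WT, with r from −0.56 to 0.60 and a median of 0.18. With the length trend removed, 11 of 15 pairs were positive in ΔMSN1, with r from −0.51 (*os-1* and *os-4*) to 0.88 (*os-1* and *os-2*) and a median of 0.21, and 7 of 15 in WT, with a median of −0.01. The pair with the highest r, *os-1* and *os-2*, had r = 0.97 and rho = 0.95 in ΔMSN1 (permutation p = 1e-05 and 3e-05, adjusted over 42 pairs 4.2e-04 and 0.00126; 1e-05 is the smallest value these permutations can give), 0.94 without 2 h and 16 h, and 0.88 with the trend removed. In WT the same pair had r = −0.13 and rho = −0.14 (permutation p = 0.69 and 0.667, adjusted 0.743 and 0.758).

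*hpt-1* had a negative r with 6 of 6 other members in ΔMSN1 and with 4 of 6 in WT. Its r with *os-4*, *rrg-1*, *os-1* and *os-5* was negative in each strain. Without 2 h and 16 h its r in ΔMSN1 was −0.73 with *os-4* and −0.63 with *rrg-1*. It was then −0.34 with *os-5*, −0.19 with *rrg-2*, −0.15 with *os-1* and −0.14 with *os-2*, so these relations rest largely on those libraries. The same count was not made for other genes. The permutation p-values given below for *os-4* and *rrg-1* also ignore the order in time and can be too small. With *os-4*, r in ΔMSN1 was −0.81 and rho −0.64 (permutation p = 0.00202 and 0.0293, adjusted 0.00714 and 0.0769), and in WT r was −0.75 and rho −0.82 (permutation p = 0.00511 and 0.00175, adjusted 0.0153 and 0.00919). Without the 2 libraries farthest from the median of *hpt-1* the r was −0.73 in ΔMSN1 and −0.67 in WT, and with the length trend removed it was −0.50 in ΔMSN1 and −0.70 in WT. With *rrg-1*, r in ΔMSN1 was −0.90 and rho −0.50 (permutation p = 9.3e-04 and 0.0977, adjusted 0.00541 and 0.163), and r in WT was −0.70 and rho −0.69 (permutation p = 0.0119 and 0.0168, adjusted 0.0278 and 0.064). Without the 2 libraries farthest from the median of *hpt-1* the r with *rrg-1* was −0.63 in ΔMSN1 and −0.68 in WT, and with the length trend removed it was −0.86 in ΔMSN1 and −0.70 in WT.

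Correlations of the levels with the length slope of the library passed in ΔMSN1 for 7 of 7 members and in WT for *os-1* and *rrg-1* (adjusted permutation p of r under 0.05). The slope is fitted to the levels of all genes against their length, so long genes tend to follow it by construction. Short genes tend to oppose it for the same reason. The share of all genes that would pass was not computed, so neither these counts nor the p-values set the members apart. *os-1*, the longest gene of the set, had r = 0.98 and rho = 0.92 with the slope in ΔMSN1 (permutation p = 1e-05 and 1e-04, adjusted over 14 relations 9.3e-05 and 4.55e-04) and r = 0.85 and rho = 0.82 in WT (permutation p = 4.5e-04 and 0.00204, adjusted 0.00105 and 0.00476). *os-2* had r = 0.94 and rho = 0.91 in ΔMSN1 (permutation p = 2e-05 and 1.3e-04, adjusted 9.3e-05 and 4.55e-04) and r = −0.41 and rho = −0.49 in WT (permutation p = 0.189 and 0.111, adjusted 0.221 and 0.129). *hpt-1* went the other way, with r = −0.80 and rho = −0.55 in ΔMSN1 (permutation p = 0.0038 and 0.0654, adjusted 0.00665 and 0.0832) and r = −0.54 and rho = −0.64 in WT (permutation p = 0.07 and 0.0292, adjusted 0.098 and 0.0455). Of the other members *rrg-1* had r = 0.94 in ΔMSN1 and 0.84 in WT, *rrg-2* had 0.86 in ΔMSN1 and 0.11 in WT, *os-5* had 0.83 in ΔMSN1 and 0.30 in WT, and *os-4* had 0.71 in ΔMSN1 and 0.44 in WT. By rho, *hpt-1* and *os-4* also passed in WT (adjusted permutation p = 0.0455 each), while *hpt-1* did not in ΔMSN1. With the extreme libraries of 2 h and 16 h left out of ΔMSN1, r was 0.95 for *os-1*, 0.87 for *os-2*, 0.84 for *rrg-1*, 0.81 for *rrg-2*, 0.50 for *os-5*, 0.49 for *os-4* and −0.34 for *hpt-1*, so the relation of *hpt-1* rests on those libraries. With 22 h and 16 h left out of WT, r was 0.71 for *os-1* and −0.75 for *os-2*. What part the length slope has in the courses of the members was not tested.

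**Figure D5:**
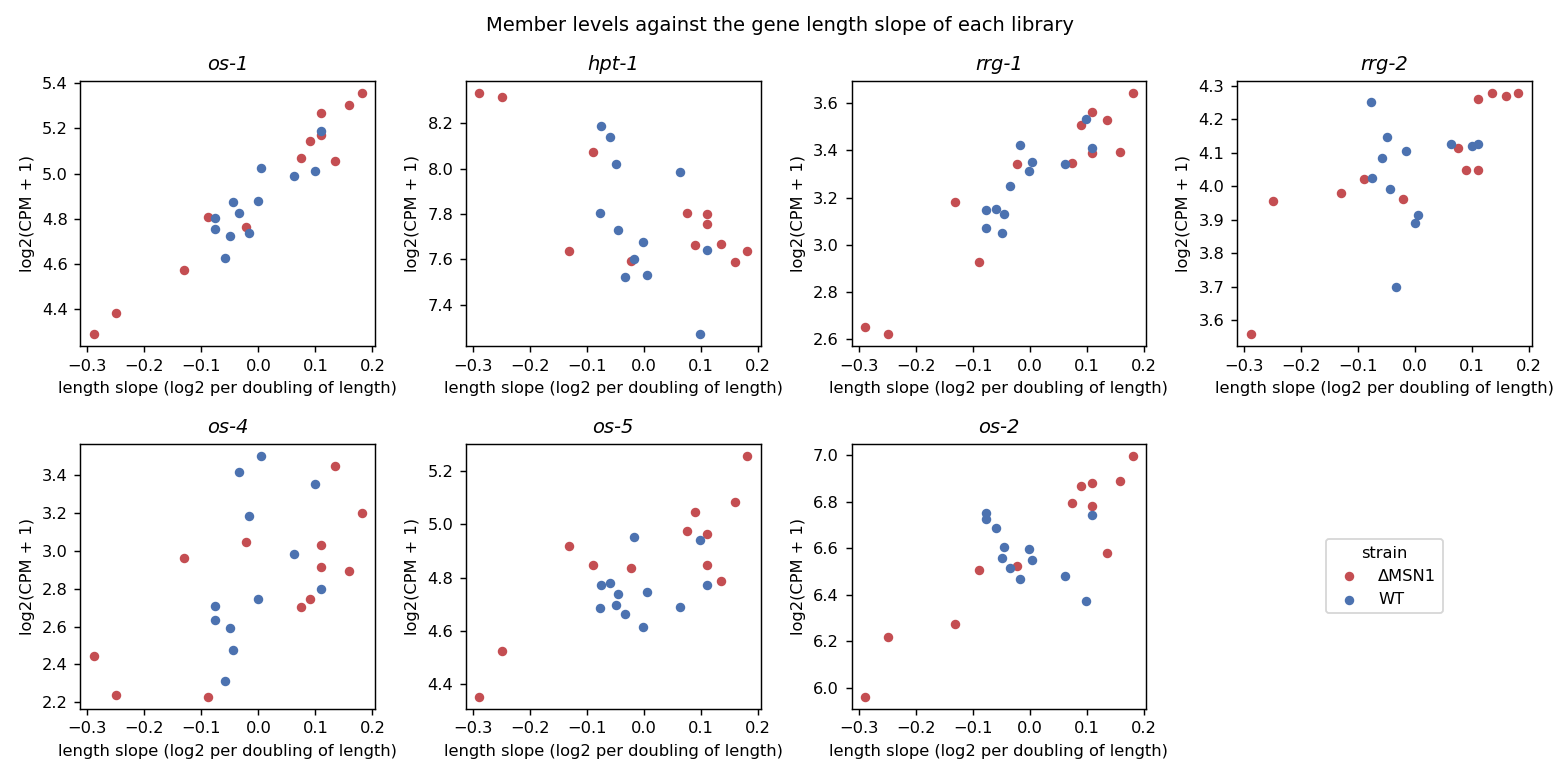
Level of each gene, as log2(CPM + 1), against the length slope of its library (log2 units per doubling of gene length), 1 point per library, ΔMSN1 in red and WT in blue. Points of *os-1* rise along a line (r = 0.98 in ΔMSN1, 0.85 in WT), those of *hpt-1* fall (r = −0.80 in ΔMSN1), and the ΔMSN1 libraries at −0.289 and −0.249 are 16 h and 2 h.

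For each member, the genes with the most similar course were taken from all tested genes, by the mean over the strains of Pearson's r on log2(CPM + 1) within 12 libraries. *apg-1* (r 0.94) and NCU01208 (0.93) were closest to *os-1*, NCU08552 (0.88) and NCU02605 (0.86) to *hpt-1*, and NCU07400 and NCU08000 (0.90 each) to *rrg-1*. NCU10155 (0.86) and NCU02315 (0.81) were closest to *rrg-2*, and NCU03137 (0.89) and NCU03023 (0.88) to *os-4*. NCU06877 (0.86) and NCU08957 (0.84) were closest to *os-5*, and NCU00100 and NCU03986 (0.81 each) to *os-2*. No member was among the closest genes of another member.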

How the data were processed

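The authors deposited estimated counts per gene, made with kallisto 0.43.1 per the labels from poly(A) libraries (a NEBNext Ultra kit), in 1 table per strain. The genome build and the use of strand are not given in the sources used here. In 913 genes at 0 in 3 to 21 libraries, the smallest value above 0 fell with gene length (r = −0.76 across genes, on ln scales, and genes are not independent), so the values appear to have been scaled by length. Gene names, lengths and neighbours come from the RefSeq table of assembly NC12, which holds 9729 of the 9730 genes. All 24 columns were assigned by their titles (0 were not mapped).

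Estimated counts were rounded and tested with edgeR 4.0.16 (R 4.3.3): TMM scaling, a mean of at least 2 CPM, quasi-likelihood F tests and Benjamini-Hochberg adjustment over all tested genes. Strain effects had time as a factor (threshold 0.05). Rhythms had 6 terms of 22, 11 and 7.33 h within a strain, and the interaction used all libraries (threshold 0.1). Printed CPM are TMM-scaled over the 24 libraries. Correlations used log2(CPM + 1) with 100000 permutations, which shuffle the libraries of a strain and ignore their order in time. Correlations between members had been planned as a description without p-values. With 1 culture per strain and time, p-values measure the spread between single cultures around the fitted terms. The scripts were tested on simulated data. The interaction test had little power there, so its recovered amplitude was checked instead of the share of changes it called. Figures were drawn with matplotlib 3.10.9.

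Named genes were the members, the kinases of the other MAP kinase cascades, reported OS-2 outputs, other phosphorelay genes and conidiation markers. Added to these were *msn-1*, *frq* as the check of the clock and, per member, the 2 genes most alike in course. Members and lists were chosen with earlier results of these data known. A list of phosphatase genes and a search of promoters were planned and are not used here, since the tables at hand held neither products nor sequences. Alternatives were DESeq2 1.42.0 (and its size factors in edgeR), limma-voom (limma 3.58.1), no filter or 5 CPM, values times gene length, no time block, one fit for both strains, a pseudocount of 0.5 and leaving out each time. A removed length trend and leaving out 2 h and 16 h together (also for spreads and correlations) were added after the data were seen.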

Additional observations from a re-analysis of the deposited data

How the results depend on the processing

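Member counts of 0 for rhythm in ΔMSN1, rhythm in WT and the interaction held under every alternative run. For the strain effect the count was 0 under all but 1: without 2 h and 16 h it was 1 (*os-5*). Without the time block, a paired fit being the main one, 0 members and 1492 genes were called for strain. Signs of small log2 fold changes turned: *rrg-2* to −0.0063 and *os-2* to −0.0046 with the length trend removed, and *hpt-1* to −0.049 and *os-4* to 0.052 without 2 h and 16 h. Leaving out each time in turn gave log2 fold changes of −0.027 to 0.094 for *hpt-1* (negative without 16 h), −0.011 to 0.12 for *rrg-1*, −0.094 to 0.045 for *os-4* and −0.0096 to 0.072 for *os-2*, none of them called. All-gene counts for strain stayed within 1214 to 1970, and those for rhythm depended on the setting. In ΔMSN1 they were 192 by DESeq2, 33 in one fit of all libraries, 0 without 2 h and 16 h, and 0 to 82 on leaving out each time. In WT they were 308 by DESeq2, 6 by limma-voom, 58 with values times gene length, 15 with the trend removed and 40 in one fit. On leaving out each time they were 454 without 0 h, 109 without 22 h and 0 to 32 otherwise. The rhythm terms take the same values at 0 and 22 h, so a difference between those libraries counts as residual spread. For the interaction they were 36 by DESeq2, 0 by limma-voom, 4 with values times gene length, 0 without 2 h and 16 h, and 0 to 13 on leaving out each time. For *os-4* the 22 h swing stayed within 1.48 to 1.92-fold in ΔMSN1 and 1.91 to 2.31-fold in WT over the 21 alternatives. The pseudocount of 0.5 moved member correlations by at most 0.01. Each time had 1 culture per strain, and how far depth or the equal terms at 0 and 22 h limit the rhythm calls was not tested.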
